A study of Saccharomyces cerevisiae with 8 samples.

Results

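Hybrid Sce2950 is a strain of the budding yeast Saccharomyces cerevisiae whose parental lines, sce2709 and sce2898, had evolved in different environments, and its RNA was set against a mix of RNA from those parents. Arrays were taken where the label of the second channel names Sce2950 in any letter case, which gave 4 of the 8 arrays of the series. On the other 4 the hybrid is Sce2965, whose mix came from lines sce2713 and sce2902. Every hybridisation paired a hybrid with its own parents, and no array held an unevolved progenitor. The hybrid carried Cy5 in replicates 1 and 3 and Cy3 in replicates 2 and 4. The label of 1 array describes the cultures: growth from a single colony at 30 °C in half-strength YPD, a rich glucose medium, harvested early in log phase. The labels name neither the environments of the parents nor the ploidy of any strain. The design text calls the replicates independent without saying whether cultures, RNA preparations or only hybridisations were repeated, and what the p-values measure is array-to-array spread, which may be technical.

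When genomes that adapted apart meet in one cell, their alleles share regulators for the first time. If each allele kept the output it had in its parent and the mix held equal amounts of both parents, hybrid and mix would hold the same amount of each transcript. A gene that departs from the mix is then transcribed, or its RNA lost, at a rate that differs from the parental average, which is one way in which interactions between diverged genes can show. On a 2-colour array both RNAs compete for the same spots, so each spot gives a ratio and not an amount. Values below are log2 ratios of hybrid over mix, where 0 means no difference and 1 a doubling in the hybrid.

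Each array held 13056 spots, printed as 2 neighbouring copies of 6528 features, and 6526 features were tested. The name field was filled for 0 spots, so features are given by spot number and no gene, pathway or control spot could be told apart. The yeast gene lists drawn up for this work were therefore not applied, and neither were the mating-type genes meant as a check of the strains. Median spot intensity on the Sce2950 arrays lay between 199 and 309 for the hybrid and between 116 and 313 for the mix, in scanner units. Replicates 1 and 2 are on slides of one number series and replicates 3 and 4 on slides of another. They are called early and later slides here, and each pair holds both dye orientations. The names follow the slide numbers only and state no order in time. Precision differed between the pairs. The robust SD between the 2 copies of a feature, from the median absolute difference, was 0.187 and 0.189 in log2 units on the early slides against 0.064 on each later slide. The local background was listed as 0 at 100% of spots in both channels of the early slides, whereas its median lay between 56.3 and 63.9 on the later ones. The mix channel of replicate 2 had a signal of 0 at 168 spots, and the other channels of the Sce2950 arrays at 0 spots.

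The question put to these arrays was which transcripts of the hybrid leave the level of the parental blend. Few passed the test, and those few lay above it. In limma with Benjamini-Hochberg adjustment over all tested features, 12 features passed an adjusted p of 0.05, which is 0.184% of those tested, and all of them were higher in the hybrid. They stood 1.66-fold to 2.39-fold above the mix, and the lowest bound of their 95% confidence intervals was 1.41-fold. The count below the mix was 0 in this fit. All 8 arrays entered it, so its p-values and confidence intervals rest on a spread shared by both hybrids. The SD given below with a fitted ratio is over the Sce2950 arrays only, and the p-value beside it does not rest on that SD alone. Before adjustment 148 features, or 2.27% of those tested, had a p under 0.05, and 102 of them were above the mix and 46 below. That share is under the 5% at which the threshold was set. Over the fits to all 8 arrays the count ran from 94 features with median centring to 728 with the replicate number as a block (424 above and 304 below). By size alone, with no test, 36 features had a fitted log2 ratio over 0.5 and 7 had one under -0.5. That balance depended on the background correction, with 75 and 38 under plain subtraction, 71 and 34 with none, and 129 and 98 with normexp at offset 0. With print-tip loess, which normalizes each print block by itself, 17 features passed above the mix and 2 below. Only 9 of the 12 were among them, and the median log2 ratio of the 12 was 0.89 against 1.11 in the main fit. Fitted on the Sce2950 arrays alone with a dye term, 13 passed above and 1 below, and these held 11 of the 12. Without a dye term, a fit that was not planned, 9 passed above and 1 below, and these held 8 of the 12. With array weights 47 passed above and 10 below, and on the later slides alone 54 above and 21 below. The count rested on every array of the hybrid: it was 5 without replicate 3 and 0 without replicate 1, replicate 2 or replicate 4, although the median log2 ratio of the 12 then stayed between 1.02 and 1.16. With normexp at offset 0 it was also 0, with 108 features at an unadjusted p under 0.05.

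The feature at spots 10209 and 10210 had the highest ratio. On replicate 1 the hybrid channel read 785 and the mix channel 299.9 in scanner units before any correction, on replicate 2 they read 815 and 249, on replicate 3 they read 496 and 390.1, and on replicate 4 they read 709 and 229. After normalization the log2 ratios were 1.28, 1.51, 1.05 and 1.20 on replicates 1 to 4. All 4 arrays were well above 0, and they spanned a range of only 0.46. Replicate 3 had the smallest gap in raw intensity, and its hybrid channel was also the dimmer one over the whole array, with a median spot of 199 against 313 in the mix channel. The fitted log2 ratio was 1.26 ± 0.192 (SD, n = 4; limma adjusted p = 0.00659), or 2.39-fold with a 95% confidence interval from 1.97 to 2.91. The printed copies gave 1.22 and 1.33 on replicate 1, 1.48 and 1.54 on replicate 2, 1.08 and 1.01 on replicate 3, and 1.19 and 1.21 on replicate 4. It was the dimmest of the 12, yet brighter than 77% of the tested features.

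The feature at spots 10991 and 10992 came next. Hybrid and mix read 1982 and 814 scanner units on replicate 1, 2947 and 1034 on replicate 2, 1064 and 942 on replicate 3, and 1698 and 469 on replicate 4. Its log2 ratios were 1.05, 1.64, 0.87 and 1.34 on replicates 1 to 4, so all lay above 0 but over a wider range of 0.77. Both arrays with the hybrid in Cy3 exceeded both arrays with it in Cy5. The fitted value was 1.22 ± 0.34 (SD, n = 4; limma adjusted p = 0.00659), or 2.33-fold with a 95% confidence interval from 1.90 to 2.86.

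No feature below the mix passed the threshold, so those of lowest unadjusted p with the same sign on all 4 arrays are given as values only. The one at spots 4743 and 4744, brighter than 99.4% of the tested features, read 6825 in the hybrid and 9381 in the mix on replicate 1, 3259 and 10603 on replicate 2, 6324 and 16197 on replicate 3, and 7145 and 12755 on replicate 4. Its log2 ratios were -0.69, -1.47, -0.77 and -1.26 on replicates 1 to 4. Every array was below 0, and the arrays with the hybrid in Cy3 were again the farther from it. The fitted value was -1.05 ± 0.376 (SD, n = 4; limma adjusted p = 0.159), or 2.07-fold below the mix with a 95% confidence interval from 1.49 to 2.87. It was the lowest fitted ratio of all tested features. Its SD over the Sce2965 arrays, which also enter the main fit, was 0.596. Fitted on the 4 Sce2950 arrays alone with a dye term, with the same ratio, the feature passed (limma adjusted p = 0.0112).

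Spots 12685 and 12686, the other such feature, had log2 ratios of -0.74, -0.64, -0.32 and -0.71 on replicates 1 to 4. All were below 0, and replicate 3 was the nearest to it. The fitted value was -0.60 ± 0.195 (SD, n = 4; limma adjusted p = 0.211), or 1.52-fold below the mix with a 95% confidence interval from 1.24 to 1.85.

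The 12 features above the mix differed by array in a regular way. Their ratios ran from 0.51 to 1.28 on replicate 1 with a median of 0.99, and from 0.87 to 1.64 on replicate 2 with a median of 1.24. On replicate 3 they ran from 0.46 to 1.09 with a median of 0.68, and on replicate 4 from 0.78 to 1.66 with a median of 1.19. Replicate 3 gave the lowest value for 9 of the 12 and replicate 4 the highest for 6. All 12 had a lower mean on the arrays with the hybrid in Cy5, with a median of 0.91, than on those with it in Cy3, with a median of 1.25. The slide pairs were closer to each other, with medians of 1.19 early and 1.01 later. A dye difference cancels in the mean because each orientation is present equally. That all 12 were above 0 on all 4 arrays follows in part from their selection by the test, and 4.26% of all tested features were above 0 on every array, with 4.31% below 0 on every array.

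**Figure D1:**
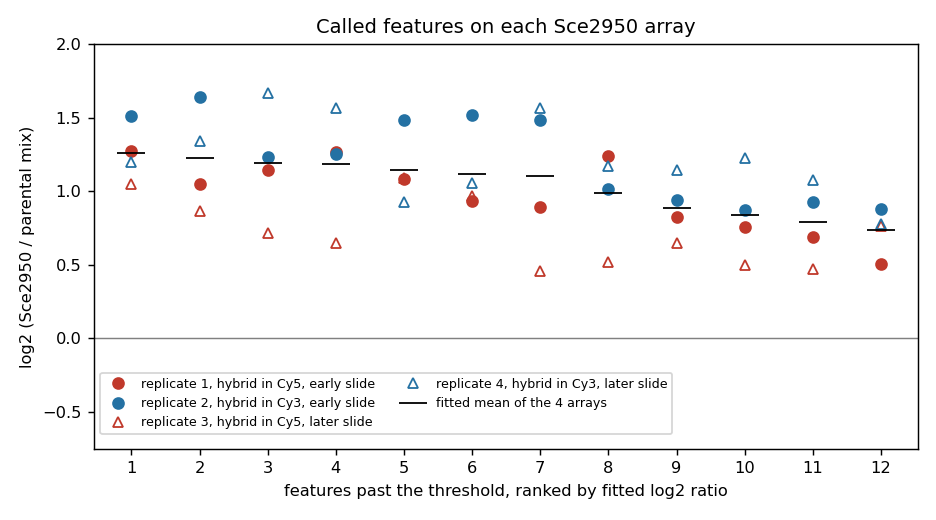
Log2 ratios of hybrid Sce2950 over its parental mix (vertical axis) for the 12 features past the threshold, ranked by fitted ratio (horizontal axis). Circles are early slides, open triangles later slides, red the hybrid in Cy5 and blue the hybrid in Cy3, and bars the fitted mean. All values lie between 0.46 and 1.66, and replicate 3 is the lowest for 9 of the 12 features.

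The threshold fell at no gap in ratio. The last feature inside had a log2 ratio of 0.73 at an adjusted p of 0.0228, and the first one outside a larger ratio, 0.91, at 0.0536 in limma.

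The called features were among the bright ones. Their median brightness, the mean log2 intensity of both channels over the 4 arrays, was 11.4 against 7.78 for all tested features, and all 12 were in the brightest of 4 brightness classes of equal size. None of their spots reached 65000, the bound used for saturation, and their feature intensities ran from 229 to 32662. They came from 10 of the 48 print blocks, with at most 3 in a block and 0 printed side by side. Features that did not pass could still lie high beside them on the early slides. Before the called feature at spots 11067 and 11068, spots 11065 and 11066 had 0.85, 1.37, -0.36 and 0.21 on replicates 1 to 4. Spots 11063 and 11064 had 0.96, 1.45, -0.59 and 0.71. Normalized block by block with print-tip loess, the 12 had a median log2 ratio of 0.89 against 1.11 in the main fit, and 9 of them passed. Whether position on the slide accounts for that change was not tested. Brightness also went with the spread of the ratios. The SD of fitted ratios over features was 0.108 in the dimmest class and 0.183 in the brightest. The median SD between arrays was 0.265 and 0.214 in those classes, so the brightest class had more spread between features and less between arrays. The SD between arrays holds dye differences as well as noise. The main processing adds an offset to both channels, which draws the ratios of dim spots toward 0. How much of the smaller spread between dim features comes from the offset was not tested. The median fitted ratio lay between -0.0069 and 0.0062 in the 4 classes.

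**Figure D2:**
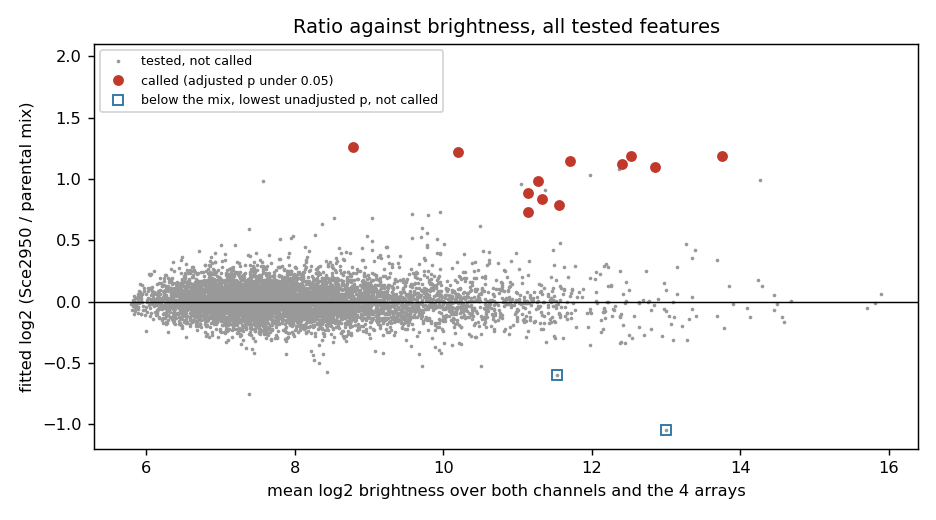
Fitted log2 ratio of hybrid Sce2950 over its mix (vertical axis) against mean log2 brightness (horizontal axis) for all 6526 tested features. Red points are the 12 features past the threshold, all above 0 and bright, and open squares are both features below the mix that are described by their values, at -1.05 and -0.60.

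For most of the tested features the arrays set a bound on the departure of the ratio. Control spots, if any, are counted among these features, since they could not be told apart. Fitted ratios ran from -1.05 to 1.26, with a 5th percentile of -0.19 and a 95th of 0.22, and 99.3% of features were within 0.5 of 0. The median 95% confidence interval reached 0.32 to either side. For 6494 features, or 99.5% of those tested, the whole interval lay within 1 of 0, so a doubling or halving lay outside it. For 74.8% it lay within 0.5. These bounds hold for normexp with offset 50, an addition to both channels that draws ratios of dim spots toward 0. At offset 0 the interval lay within 1 of 0 for 81.3% of features and within 0.5 for 22.7%, and with plain subtraction for 97.5% and 62.2%. The intervals are not adjusted for the number of features, so they are not the limit of detection of the adjusted test. The lowest log2 ratio that passed it was 0.73, and a feature at 0.91 did not pass. With 4 arrays a departure could thus exceed the reach of its interval and still not be called.

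Agreement between the slide pairs depended on brightness. Over all features measured on all 4 arrays, the mean ratios of the early and later slides correlated at 0.36 by Pearson and 0.24 by Spearman (n = 6514 features, which are not independent replicates and share slides and dyes). By brightness class, from dimmest to brightest, the Pearson correlation was -0.026, 0.14, 0.30 and 0.72, and the Spearman correlation -0.054, 0.099, 0.27 and 0.59. By either measure it was highest in the brightest class and near 0 in the dimmest.

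The repeatability was then read from features ranked on one slide pair and measured on the other, which the ranking had not used. The 50 features highest on the early slides had a median log2 ratio of 0.81 there and 0.23 on the later slides, where 42 of the 50 were above 0. The 50 highest on the later slides had a median of 0.56 there and 0.59 on the early slides, where 48 of the 50 were above 0. The group ranked on the more precise later slides thus had a median of like size on the slides not used to rank it. At the low end, the 50 lowest on the early slides had a median of -0.52 there and -0.05 on the later slides, with 35 of the 50 below 0, and the 50 lowest on the later slides had -0.39 there and -0.17 on the early slides, with 38 of the 50 below 0. Over all features the median was 0.001 on the early slides and -0.003 on the later ones, with 50.2% and 48.3% above 0.

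**Figure D3:**
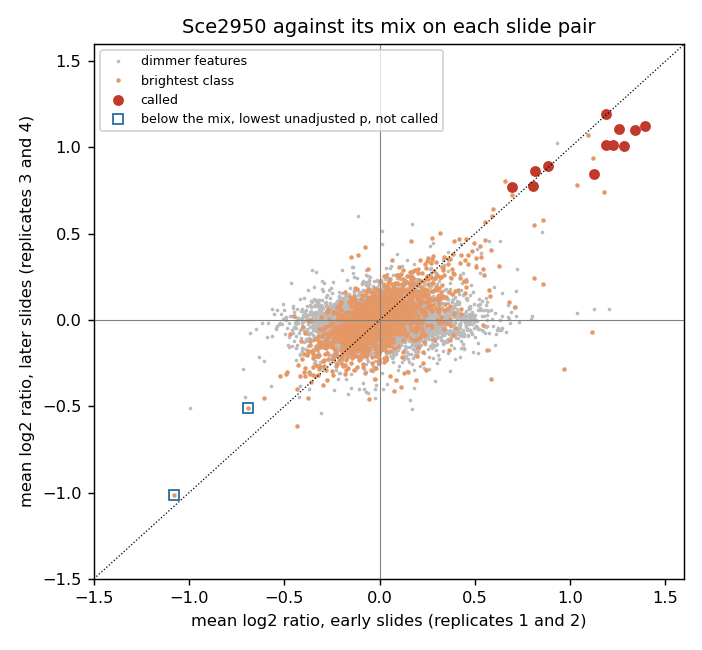
Mean log2 ratio of hybrid Sce2950 over its mix on the early slides (horizontal axis) and on the later slides (vertical axis), for each feature measured on all 4 arrays. The brightest class, in orange, follows the dotted line of equality more closely (Pearson correlation 0.72) than the dimmer features, in grey, and the 12 called features, in red, lie at the upper right.

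Over all features dye orientation held a larger share of the squared ratios than the mean of the 4 arrays, and in the brightest class a smaller one. On the early slides replicates 1 and 2, of opposite orientation, had a Pearson correlation of -0.29 across features, and on the later slides replicates 3 and 4 had -0.56. Replicates of the same orientation correlated at 0.14 in Cy5 and 0.19 in Cy3 (6526 features; the arrays share the print design). The 4 arrays form every combination of dye and slide pair, so each feature's ratios divide exactly into a mean, a dye part, a slide pair part and a part in which dye and slide pair combine. Over all features the mean held 20.3% of the summed squares, dye 37.8%, slide pair 10.6%, and the combination 31.3%. The combination holds dye effects that differ between slide pairs together with noise, which cannot be told apart with 1 array in each cell. Noise enters the other parts too, and noise independent between arrays would by itself give all 4 parts equal shares. The share of the mean over all features is below that level but above that of slide pair, which holds noise as well. Dye effects also enter the total, so equal shares are no yardstick for the mean. No share by itself measures the departure of the hybrid. In the brightest class the mean held 38.9%, dye 28.4% and slide pair 6.69%. In the dimmest class the mean held 12%, dye 41.6% and slide pair 12.6%. With print-tip loess the mean held 26.2% and dye 34.4%.

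**Figure D4:**
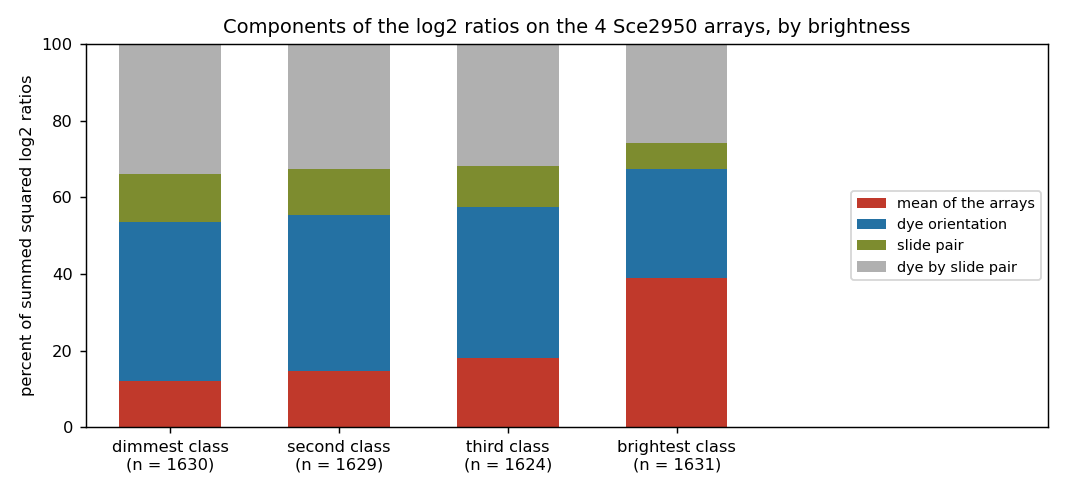
Share of the summed squared log2 ratios of the 4 Sce2950 arrays (vertical axis, percent) held by the mean of the arrays, dye orientation, slide pair and their combination, for features in 4 brightness classes of equal size (horizontal axis). The share of the mean is 12% in the dimmest class and 38.9% in the brightest.

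In the limma fit 859 features, or 13.2% of those tested, had an unadjusted p under 0.05 for a dye effect common to all 8 arrays, against the 2.27% for the hybrid. Only the feature at spots 12669 and 12670, named because it was the single one, passed for dye after adjustment, which is 0.0153% of those tested (limma adjusted p = 0.0468), and its ratio of hybrid over mix was -0.27 (limma adjusted p = 1.00). In a fit with a dye term for each slide series, 31 features passed in the hybrid, 28 above the mix and 3 below. Those 31 hold all of the 12. The ratios themselves are unchanged by this term, since the dyes are balanced on each slide pair. Both features below the mix described above were among those that passed, each at a limma adjusted p of 0.0246.

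The hybrid Sce2965 served to show where Sce2950 differs. Of the 12 features, 11 differed between the hybrids in limma by the test of the difference itself, where 0.398% of all tested features passed, and in all 11 the ratio was higher in Sce2950. The 12 were selected for high ratios in Sce2950, which also enter the difference, so its direction and part of its size follow from the selection. In 10 of the 12, Sce2965 was below its own mix on all 4 arrays, against 5.18% of all tested features. Those 10 had log2 ratios of 0.73 to 1.19 in Sce2950 and of -1.02 to -0.74 in Sce2965, with differences between 1.53 and 2.21 in size (highest limma adjusted p = 0.00164). The mixes are of different parents, so a difference can lie in the hybrids or in the mixes, which cannot be told apart here.

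The features named above took different courses. Spots 10209 and 10210 had ratios of 0.33, -0.33, 0.17 and 0.35 on replicates 1 to 4 of Sce2965, on both sides of 0. The difference, Sce2965 minus Sce2950, was -1.13 (limma adjusted p = 0.0235), and no array of one hybrid reached the range of the other. Spots 10991 and 10992 had 0.68, 0.54, 0.87 and 0.61 in Sce2965, where the highest array was just above the lowest of Sce2950. The difference was -0.55 and did not pass (limma adjusted p = 1.00). Spots 12685 and 12686 had -0.35, -0.88, -0.67 and -0.45 in Sce2965, which overlap the values in Sce2950, with a difference of 0.01 (limma adjusted p = 1.00). Spots 4743 and 4744 had 0.43, -0.06, -0.36 and 1.00 in Sce2965, all above the values in Sce2950, with a difference of 1.30 that did not pass (limma adjusted p = 0.263).

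**Figure D5:**
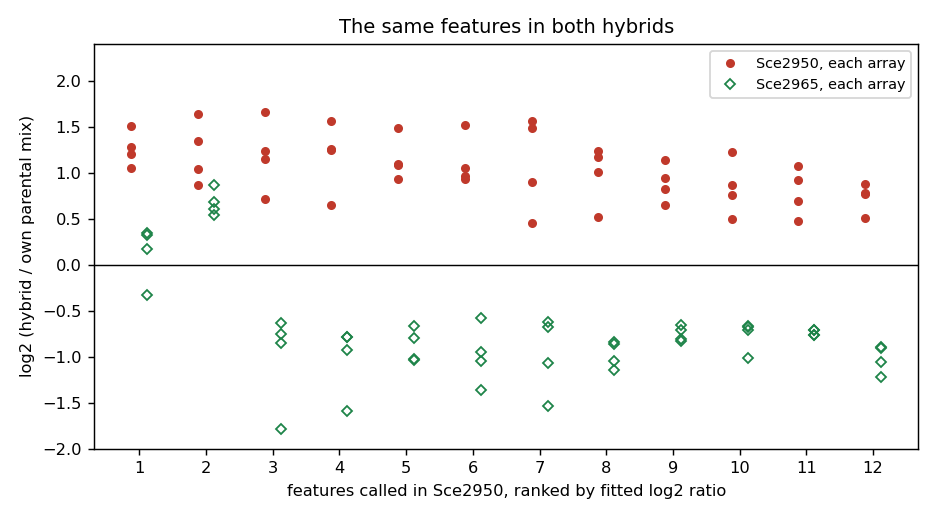
Log2 ratio of each hybrid over its own parental mix (vertical axis) on each array, for the 12 features called in Sce2950 (horizontal axis, ranked by ratio in Sce2950). Red circles are the 4 arrays of Sce2950 and green diamonds the 4 of Sce2965. For 10 features all green values lie below 0 while all red values lie above it.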

How the data were processed

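Per the file headers, the deposited scanner files hold intensity and local background intensity per spot and channel, not background subtracted. Channel 1 is the mix and channel 2 the hybrid. The authors' deposited value table holds log2 ratios of unstated normalization. Its columns correlated at 0.945 to 0.997 with ratios recomputed here by background subtraction and print-tip loess, which settles scale and direction, and their medians lay within 0.00835 of 0. With the ratios of the main processing the correlations were lower. They were 0.70, 0.67, 0.87 and 0.91 for replicates 1 to 4 of Sce2950, and 0.56 to 0.89 for Sce2965. The deposited table served as an alternative.

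Background was corrected by normexp (offset 50), ratios were normalized by global loess, spots marked to be ignored were left out, and the 2 copies of a feature were averaged. A feature needed values on 3 arrays of each hybrid. All 8 arrays entered one linear model in limma 3.58.1 (R 4.3.3), in which each hybrid had its own coefficient and the dye term was common (5 residual and 5.50 prior degrees of freedom). Tests were two-sided. A ratio against the mix leaves out the spread between preparations of the mix if arrays shared one. The fit was tested on simulated data with equal noise on all arrays and a dye effect common to them. The real slide pairs differ in precision, and dye effects may differ between them, so the simulation does not test the fit under such differences. Other backgrounds, normalizations, dye terms, blocks, weights, filters and left-out arrays were tried. The number of arrays limits the precision. Gene lists and rules were chosen with earlier results of these data known. Named features were to be the largest ratios past the threshold with one sign on all 4 arrays, filled up by lowest unadjusted p, with at most 2 per direction because spots carry no gene names. Figures were drawn with matplotlib 3.10.9, and the block correlation used statmod 1.5.0.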

Additional observations from a re-analysis of the deposited data

Results flagged for a closer look

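The feature at spots 10209 and 10210 had a ratio that differed between the hybrids when the difference was tested directly, at -1.13 for Sce2965 minus Sce2950 (limma adjusted p = 0.0235). It was named for its high ratio in Sce2950, so the direction and part of the size of this difference follow from the selection. Among the 4 Sce2950 arrays, replicate 4 stood apart in the median intensity of the hybrid channel, at 309 against 199 to 210.4 scanner units on the others, with a gap of 0.893 of the whole range. Such a gap is past Dixon's limit, which chance alone passes in some groups of 4. Replicate 4 alone among them had the hybrid in Cy3 on a later slide. Cy3 medians on the other slides of that series were 313 and 297 (mix, replicate 3 of Sce2950 and of Sce2965) and 328 (hybrid, replicate 4 of Sce2965). Whether dye and slide series account for the gap was not tested.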

How the results depend on the processing

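The count of 12 features was within 1.5 times its value in 9 of 18 other settings. It was 0 with normexp at offset 0 and 2 with median centring. It was 19 with print-tip loess, 23 with slide series as a random block, 31 with a dye term per slide series, 57 with array weights (47 above, 10 below) and 75 on the later slides alone (54 above, 21 below), a fit with 1 residual degree of freedom that leans on the prior spread. With print-tip loess and a dye term per slide series together, chosen after seeing the data, it was 56 (45 above, 11 below). Leaving out 1 array gave 0 to 14 features, with 12, 14, 9 and 8 when replicates 1 to 4 of Sce2965 were left out. The 12 were above 0 in all 26 settings, left-out arrays included, with a median log2 ratio between 0.88 and 1.23. From the values the authors deposited, 9 passed, 6 of them among the 12. Of the 12, 8 to 11 differed between the hybrids in the 16 settings that hold both, and 10 to 11 with 1 array left out. The features at spots 10209 and 10991 kept their calls in 22 of 26 settings each. Those at spots 4743 and 12685 passed in 8 and 5 of 26.

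The hybrids share replicate numbers. Deviations of same-numbered arrays correlated at -0.11, 0.054, 0.66 and 0.65 for replicates 1 to 4, of which only replicates 3 and 4 carried the same dye in both hybrids, and 2 of the 4 Sce2950 arrays correlated best with their own number. The numbers are thus not taken as pairs. With the replicate block 34 features passed, 31 above and 3 below. Dim features are limited by signal over background.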
